A study of Mus musculus with 12 samples.

Results

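The 8 genes described here are 3 transcription factors of the anterior pituitary (Pitx1, Lhx3 and Pou1f1) and 5 of its receptors for hypothalamic signals (Ghrhr, Gnrhr, Trhr, Crhr1 and Drd2). They were found by gene name among the transcript probes of a mouse expression array, on which 10 probes measure these 8 of 30119 named genes and transcripts. They were chosen because of their levels in the deposited value table, whose columns titled OP stood apart from its columns titled OC and OE. That contrast is therefore given as a description, without a test.

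The anterior pituitary is the gland below the brain that secretes growth hormone, prolactin, thyroid-stimulating hormone, the gonadotropins and the precursor of adrenocorticotropin. Its secretory cells form under homeodomain transcription factors, among which Pitx1 and Lhx3 act early in the pouch that becomes the gland and Pou1f1 later specifies the cells that make growth hormone, prolactin and thyroid-stimulating hormone. Each secretory cell type then answers the hypothalamus through its own receptors, which couple to G proteins and so to cyclic AMP or calcium. The ovary lies downstream, as a target of the gonadotropins.

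The study profiled ovaries of 12 adult female C57BL/6J mice, an inbred strain, that were 2 months old, using Agilent arrays that read 2 dyes. The 3 diet groups of 4 biological replicates each were a normal diet (OC), a diet deficient in vitamin D during early life only (OE) and the same deficiency around puberty only (OP). The labels name no other genotype or agent, and every sample is labelled as ovary. Scanner samples are called C1 to C4, E1 to E4 and P1 to P4, and columns of the value table OC1 to OC4, OE1 to OE4 and OP1 to OP4, with odd replicates labelled with Cy3 and even ones with Cy5. Whole ovaries were measured, so fewer cells of a type and less RNA per cell cannot be told apart.

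The value table and the scanner files did not hold the same arrays under the same names. Each OC column equalled an early-life scanner channel and each OE column a control channel, as log2 of the median spot signal minus its local background, centred on the column median. The largest deviation over these 8 columns was 4.59e-09. The 4 OP columns matched none of the 12 channels, their best correlation across features being 0.874 to 0.897. They correlated at 0.977 to 0.988 with each other and at 0.854 to 0.897 with the other columns. The spots of 1 probe agreed as closely in the OP columns as elsewhere, with a median SD between the 10 spots of 399 repeated probes of 0.264 to 0.285 against 0.252 to 0.335 in the other columns, which bears on the naming of the rows of the OP columns. No scanner file of the arrays behind the OP columns was used here, and these columns have no detection flags.

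The labelled tissue was checked against marker genes in the table. Of 19 measured ovary markers, 18 were lower in the OP columns than in the OC and OE columns of the same dye and 0 were higher, with a median log2 difference of -5.93. All 7 pituitary hormone genes were higher, with a median difference of 8.73. Over all 30064 genes of the table the median difference was -0.054, with 17.5% higher and 21.9% lower in both OP columns of each dye than in all 4 other columns of that dye. In all such counts a column without a value was taken as lower than any column with a value. The markers of the OP columns thus go against the label ovary, and these columns are called by their titles below. In the scanner files all 19 ovary markers on the array stood well above background in each of the samples P1 to P4.

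The probes stand where the array's design places them on build mm9, and no annotation of that build was used, so exons and UTRs are not given. The Pitx1 probe is at chr13:55926417-55926476, the Lhx3 probe at chr2:26055746-26055805 and the Pou1f1 probe at chr16:65534256-65534315. The 2 Gnrhr probes are at chr5:86611152-86611211 and chr5:86613585-86613644, the Trhr probe at chr15:44067399-44067458, and the 2 Crhr1 probes at chr11:104036182-104036241 and chr11:104036691-104036750. The Ghrhr and Drd2 probes are shown as examples. Neither stood well above background in an ovary sample, and nor did the Trhr probe or the Gnrhr probe at chr5:86611152-86611211. The Ghrhr probe covers chr6:55334145-55334751, 607 bases of genome for 60 bases of probe, so it joins 2 stretches of the gene. The Drd2 probe lies at chr9:49215047-49215106.
Ghrhr: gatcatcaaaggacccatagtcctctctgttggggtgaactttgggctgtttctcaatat
Drd2: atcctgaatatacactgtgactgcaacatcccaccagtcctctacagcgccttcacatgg

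Start regions were searched because POU1F1 is known to bind the promoter of its own gene. RefSeq start windows (250 bases before to 50 after a start, build GRCm38.p6) were held for 5 of the 8 genes, in 7 windows. The motifs were ATGNATA for POU1F1, TAATCC for PITX1 and TAATTA for LHX3, on both strands, and they do not contain each other. Of 32851 windows of all genes, 8.84% held ATGNATA, 7.06% TAATCC and 5.29% TAATTA. In the windows of these genes the only matches were 2 of ATGNATA at Pou1f1, 57 bases before and 12 bases after the start. The 250 bases before the Pou1f1 start, chr16:65520262-65520511 on the plus strand, follow with the first match in capitals.
Pou1f1: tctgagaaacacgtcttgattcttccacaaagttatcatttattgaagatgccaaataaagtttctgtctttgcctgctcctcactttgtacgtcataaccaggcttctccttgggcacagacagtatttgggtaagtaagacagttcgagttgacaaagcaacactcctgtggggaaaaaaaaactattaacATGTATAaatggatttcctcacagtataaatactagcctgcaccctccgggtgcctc
A match is a run of letters and does not show binding.

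In the value table all 8 genes were higher in the OP columns than in the OC and OE columns of the same dye, where 17.5% of all genes were. Of the 8, 6 had all 4 OP columns above all 8 others, where 5.09% of all genes did and 6.57% had all 4 below. Here too a column without a value was taken as lower than any with a value. Pitx1 and Pou1f1 had no value in 3 of the 8 others, and Ghrhr, Gnrhr (brighter probe) and Trhr in 1. Since the genes were chosen on this contrast, nothing is read from either count. The median of the 8 differences was 4.95 on the log2 scale, and by OP column it was 5.57 and 5.54 in Cy3 (OP1 and OP3) and 4.26 and 4.43 in Cy5 (OP2 and OP4). Values below are log2 with the column median at 0. Cy5 columns ran lower than Cy3 columns for these probes and lacked 8846 to 10099 feature values against 99 to 769 in Cy3 columns, so the dyes are given apart. Of the missing values in the OC and OE columns, 99.98% belonged to spots not well above background in the matched channel. Where all 8 other columns were not well above background, the fold is a lower bound. For it, each other column was raised to the lowest value well above background in its channel where it lay under that or had no value, the means were compared within each dye, and the smaller of the 2 folds is given.

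**Figure D1:**
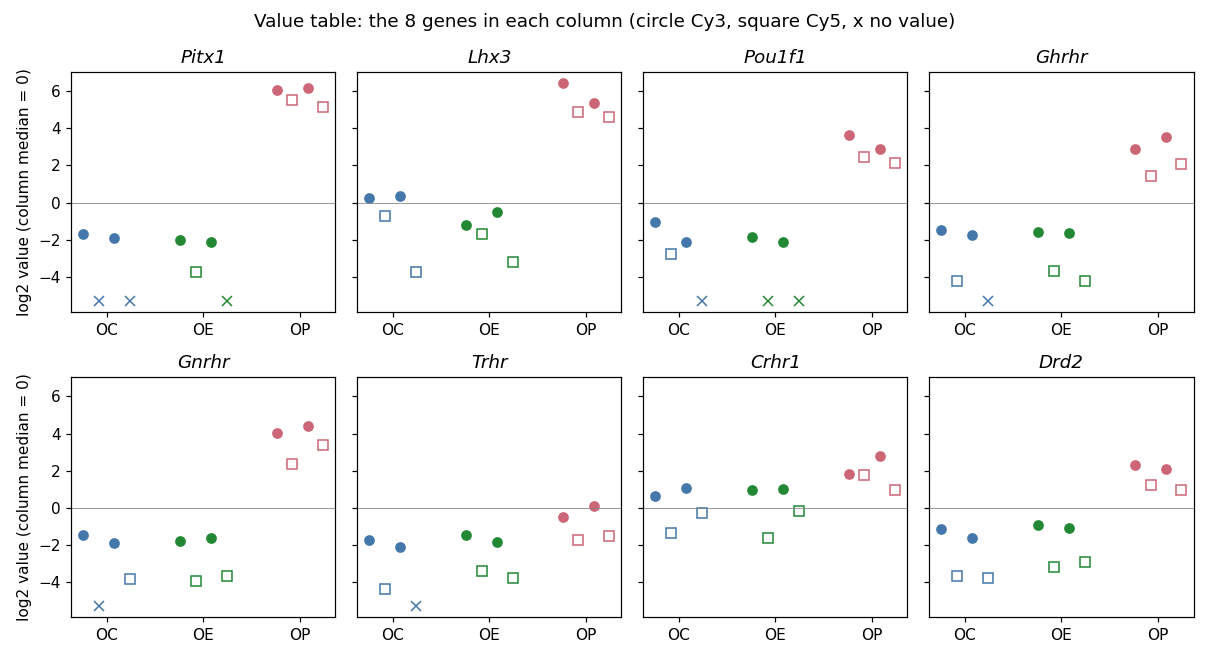
Log2 values of the 8 genes (brightest probe) in each of the 12 columns of the value table, centred on the column median; circles are Cy3 columns, squares Cy5 columns, and a cross marks a column without a value. The OP columns lie apart from the OC and OE columns for 6 genes, and for Trhr and Crhr1 only within a dye.

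Pitx1, the homeodomain factor that activates hormone genes in several pituitary cell types, measured 6.04, 5.51, 6.17 and 5.15 in OP1 to OP4. In the other Cy3 columns it measured -2.09 to -1.70, and in the other Cy5 columns -3.73 in OE2 and no value in 3. All 8 of these were not well above background, and the OP columns were at least 226-fold higher within each dye. No other column with a value came within several log2 units of an OP column.

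Lhx3, a LIM-homeodomain factor needed for growth of the pituitary pouch, measured 6.45, 4.86, 5.36 and 4.60 in OP1 to OP4. The 8 other columns ranged from -3.75 to 0.38 with a median of -0.94, and 5 of them were well above background. The difference of means was 6.61, and the groups did not overlap. Lhx3 thus had a measurable level in some of the ovary samples as well. The part of oviduct tissue in that level, described below, was not tested. The SD was 1.52 over the ovary columns (n = 8) and 0.82 over the OP columns (n = 4), and both include the offset between dyes. The Cy3 and Cy5 means were -0.25 and -2.34 in the ovary columns and 5.90 and 4.73 in the OP columns.

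Pou1f1, the POU-domain factor that drives the genes of growth hormone, prolactin and the thyroid-stimulating hormone beta chain, measured 3.65, 2.45, 2.91 and 2.13 in OP1 to OP4. The other Cy3 columns measured -2.13 to -1.06, and of the other Cy5 columns only OC2 had a value, -2.74. Columns OC1 and OC2, which equal the 2 channels of 1 array, were the only ones well above background. The Cy3 difference was 5.06, with no overlap.

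Ghrhr, the receptor of growth hormone-releasing hormone on somatotropes, measured 2.86, 1.45, 3.55 and 2.10 in OP1 to OP4. In the other columns it measured -4.21 to -1.47 with a median of -1.73 and no value in 1, all not well above background. The OP columns were at least 27.8-fold higher within each dye, without overlap.

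Gnrhr, the receptor of gonadotropin-releasing hormone on gonadotropes, was read by 2 probes. The brighter one measured 4.03, 2.36, 4.39 and 3.39 in OP1 to OP4 and -3.92 to -1.47 elsewhere, with no value in 1 column, and was at least 58.8-fold higher in the OP columns within each dye. All 8 other columns of this probe were not well above background. The other probe measured 2.02, -0.25, 2.43 and 0.61 in the OP columns. Its OC and OE columns reached -0.64, with no value in 3, and 2 of 8 were well above background. Both probes placed all OP columns above all other columns that had a value.

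Drd2, the dopamine receptor through which the hypothalamus restrains prolactin release, measured 2.33, 1.23, 2.08 and 0.98 in OP1 to OP4. The other columns measured -3.76 to -0.90 with a median of -2.26, all not well above background, and the OP columns were at least 10.4-fold higher within each dye. The groups did not overlap.

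Trhr, the receptor of thyrotropin-releasing hormone on thyrotropes and lactotropes, measured -0.47, -1.71, 0.13 and -1.50 in OP1 to OP4, around or below the column median. The other Cy3 columns measured -2.10 to -1.44 and the other Cy5 columns -4.35 to -3.42, with no value in OC4. All of these were not well above background. The OP columns were higher within each dye, by at least 2.86-fold, but OP2 and OP4 fell within the range of the other Cy3 columns. Without detection flags it is not known whether Trhr stood above background in the OP columns, so this fold takes their values as given.

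Crhr1, the receptor of corticotropin-releasing hormone on corticotropes, was the only one of the 8 genes well above background in all 8 other columns. Its brighter probe measured 1.83, 1.78, 2.78 and 0.96 in OP1 to OP4. The other Cy3 columns measured 0.65 to 1.08 and the other Cy5 columns -1.64 to -0.16. The difference of means was 1.80, which is 3.49-fold, and OP4 lay within the range of the other Cy3 columns. The second probe measured -0.45, -0.93, 0.24 and -1.68 in the OP columns and differed by 1.32 in the same direction.

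The 4 OP columns also differed among themselves, and pairs of 1 dye could be set side by side. Over all genes the median absolute difference was 0.253 between OP3 and OP1 and 0.234 between OP4 and OP2, and 95% of genes stayed within 1.04 and 0.929. Gnrhr was higher in OP3 than OP1 by 0.36 and in OP4 than OP2 by 1.03. Of the gonadotropin chains, made in the same cells, Lhb differed by 1.01 and 2.35, Fshb by 2.30 and 0.59, and the alpha chain Cga by -0.27 and 0.70, in opposite directions. Ghrhr was higher by 0.69 and 0.65 and Trhr by 0.60 and 0.21. Lhx3 differed by -1.09 and -0.26 and Pou1f1 by -0.74 and -0.32. Of the hormone genes that Pou1f1 drives, Prl differed by -0.80 and -0.15 and Tshb by -0.42 and -0.67, while Gh differed by 0.21 and 0.26, opposite to Pou1f1 in both pairs. Drd2 differed by -0.26 and -0.25. Crhr1 (0.95 and -0.82) and Pitx1 (0.13 and -0.36) differed in opposite directions in the 2 pairs. With 1 pair per dye these differences have no replicate check.

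**Figure D2:**
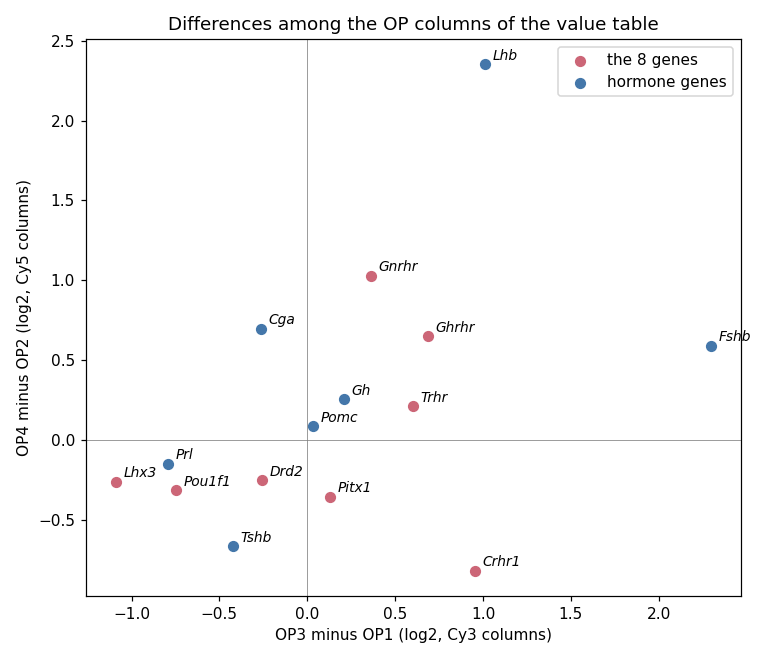
Log2 differences between OP columns of the same dye, Cy3 (OP3 minus OP1) on the horizontal and Cy5 (OP4 minus OP2) on the vertical axis, for the 8 genes (red) and the 7 hormone genes (blue). Gnrhr, Ghrhr, Trhr, Lhb, Fshb, Gh and Pomc lie to the upper right, Lhx3, Pou1f1, Drd2, Prl and Tshb to the lower left, Cga to the upper left, and Crhr1 and Pitx1 to the lower right.

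The other genes of the axis were counted the same way in the table, as a description against the 17.5% higher and 21.9% lower of all genes. The hormone products were high throughout: Gh measured 10.03, 9.94, 10.24 and 10.20 in OP1 to OP4, and Prl 10.07, 9.74, 9.27 and 9.60. Gh, Cga (the shared alpha chain of the glycoprotein hormones) and Prl were not well above background in the 8 other columns and were at least 3266-fold, 3156-fold and 2830-fold higher in the OP columns within each dye. Pomc, the adrenocorticotropin precursor, was above background in all 8 and differed by 8.73. Of 21 genes of hormone processing and secretion, 19 were higher and 0 lower, with a median difference of 6.80. Among these were the granins Chgb (9.87) and Chga (8.87) and the prohormone convertase Pcsk2 (9.19). The granin Scg2, not well above background in the other columns, was at least 1180-fold higher. With other columns raised to background where they lay under it, the medians were 9.07 for hormone genes and 6.83 for this list.

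Of 23 other pituitary transcription factors, 12 were higher and 3 lower, with a median difference of 2.04. The homeodomain factors Six6 and Six3, by their brightest probes not well above background in the 8 other columns, were at least 63-fold and 40.2-fold higher within each dye. In the scanner files a Six3 probe was well above background in 4 or more of the 12 samples. The lower ones were Zeb2 (-3.48), Nr5a1 (-2.77), a factor of gonadotropes that ovarian steroid-producing cells also use, and Nr0b1 (-1.61). Foxl2, which gonadotropes and granulosa cells share, differed by -0.05, with the groups overlapping. Of 22 other pituitary receptors, 8 were higher and 1 lower, with a median of 0.38. Sstr3, a somatostatin receptor, differed by 3.61, the thyroid hormone receptor Thrb by 3.36 and the PACAP receptor Adcyap1r1 by 2.69, while the dopamine receptor Drd4 differed by -3.02. Of 26 genes that couple receptors to cyclic AMP and calcium, 13 were higher and 4 lower, with a median of 1.15. They included the adenylate cyclase Adcy5 (3.32) and the G protein regulator Rgs4 (3.00) on one side and the protein kinase A subunit Prkar2b (-4.33) and the phospholipase Plcb3 (-2.76) on the other.

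The ligands of these receptors were counted next. Of 15 hypothalamic ligand genes and genes of dopamine synthesis, 7 were higher and 0 lower, with a median of 0.34. The releasing-hormone genes themselves, Ghrh, Gnrh1, Trh and Crh, overlapped between the groups. Oxt and Avp, whose products are released from nerve endings in the posterior pituitary, were higher, Oxt by 7.26 and Avp at least 12-fold, its 8 other columns being not well above background. The ghrelin gene Ghrl, above background in 6 of the 8, differed by 2.70.

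Markers of other cells were counted as well. Of 16 neuron markers, 13 were higher and 0 lower, with a median of 1.71, among them Grin1 (4.74) and Nefh (4.27), above background in 7 and 5 of the 8 other columns. Gad2 and Slc17a6, above background in none of these 8, were at least 25.1-fold and 13.7-fold higher. Their summed level, in units of the column median, was 25.3 to 54.9 in the OP columns and 1.87 to 9.93 in the others. Of 10 glia markers, 4 were higher, Aqp4 (1.95) and Slc1a2 (at least 2.73-fold) among them, and 1 lower, with summed levels of 15.1 to 32.4 and 14.9 to 39.1. Of 10 markers of pituitary stem and folliculostellate cells, 2 were higher (Sox2 at least 10.8-fold and Cpa4 at least 3.32-fold) and 4 lower, S100b by -3.37. The summed ovary markers were 15.0 to 35.3 in the OP columns and 1048 to 2617 in the others, and the summed hormone genes 3423 to 3930 and 1.28 to 5.82. Of the ovary markers, Hsd3b1 and Cyp11a1, both steroid-producing enzymes, differed by -11.36 and -10.56, the oocyte factor Gdf9 by -7.87 and the cholesterol transporter Star by -7.47. The part of neural cells in the values of the 8 genes was not tested.

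**Figure D3:**
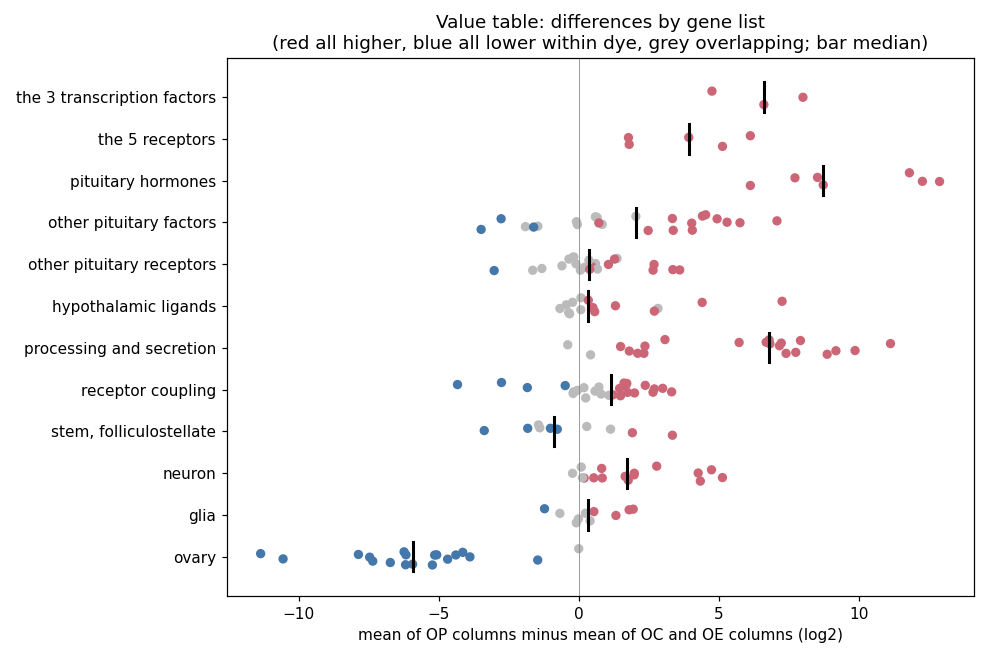
Log2 difference, mean of the OP columns minus mean of the OC and OE columns, of each gene of 12 lists in the value table; red genes are higher and blue genes lower in both OP columns of each dye than in all others of that dye, grey genes overlap, and black bars are list medians. Genes not well above background in the OC and OE columns are plotted at their measured difference, not at a bound. Hormone genes (median 8.73) and secretion genes (6.80) lie to the right and ovary markers (-5.93) to the left.

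The genes whose pattern over the 12 columns was most like the mean of the 8 genes, by Pearson correlation among 19613 genes measured in every column, were Tmem108 (0.998), Lrrc4b (0.997), 3300002P13Rik (0.997), Sv2a (0.997) and Nrxn2 (0.996). These 12 points share the split between the OP and the other columns and the dyes, so the correlations are a description. For the mean, missing values of the 8 genes were set to the 0.01 quantile of their column. Genes lacking a value in any column, as Pitx1, Pou1f1, Ghrhr, Gnrhr and Trhr do, were not among those compared.

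In the ovary samples of the scanner files, Pitx1, Ghrhr, Trhr and Drd2 were not well above background in any of 12 samples. Pou1f1 and Gnrhr were in 2 samples each, and Lhx3 and Crhr1 in 8 and 12. The normalized log2 intensity of Pitx1 ran from 6.22 to 6.71 with a median of 6.32, that of Ghrhr from 6.44 to 6.72 with a median of 6.56, that of Trhr from 6.35 to 6.78 with a median of 6.44, and that of Drd2 from 6.63 to 7.11 with a median of 6.92. For these 4 genes a level in ovary, or a difference between diets, was not detectable at this signal. The peripubertal samples P1 to P4 read 6.29, 6.46, 6.25 and 6.31 for Pitx1, so the levels of the OP columns had no counterpart in them.

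Pou1f1 was well above background only in E3 and E4, the 2 samples of 1 array. It measured 7.25 in E3, its spot in E4 was set aside as an outlier and gave no value, and the other 10 samples measured 6.21 to 6.48. Of the Gnrhr probes, the one at chr5:86613585-86613644 was well above background only in C3 (7.49) and C4 (7.63), again 1 array, against 6.39 to 6.53 in the other 10 samples. The other Gnrhr probe measured 6.45 to 6.85 and was above background in 0 samples, so the 2 probes of this gene disagree on that array.

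**Figure D4:**
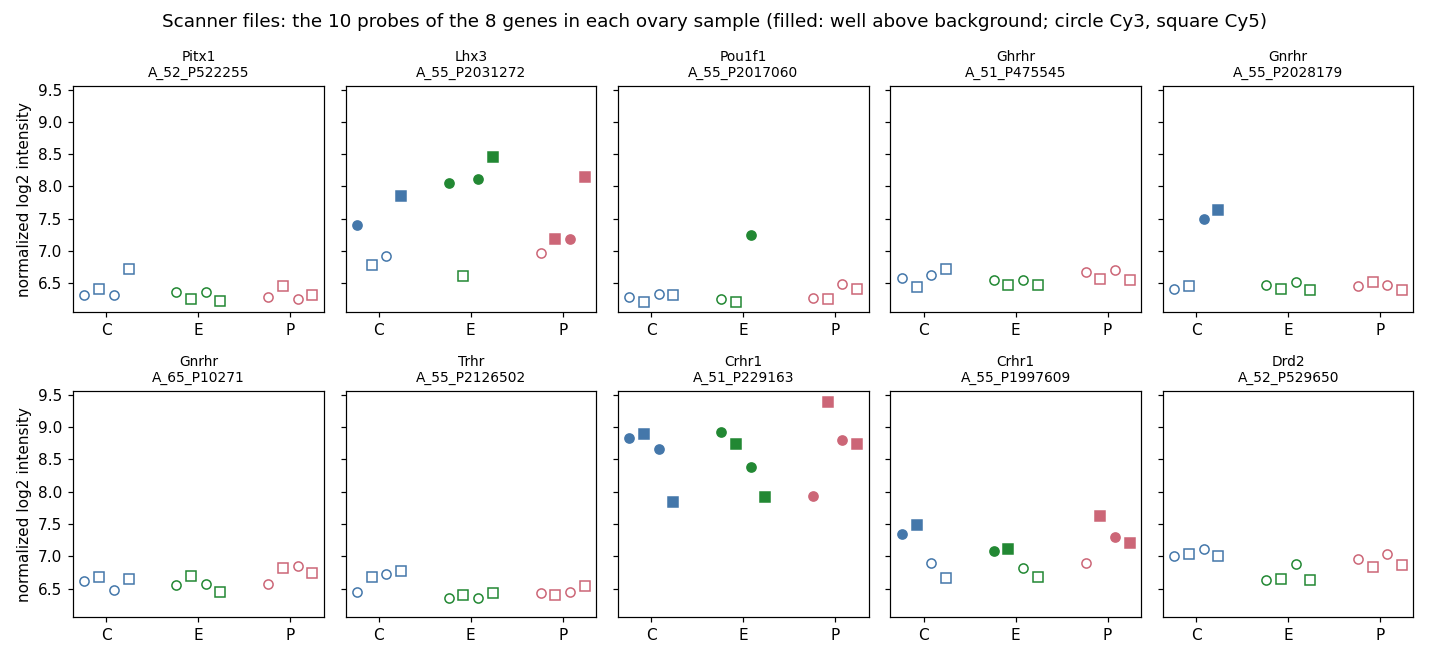
Normalized log2 intensity of the 10 probes of the 8 genes in the 12 ovary samples (C control, E early-life and P peripubertal deficiency); filled symbols are well above background, circles Cy3 and squares Cy5. Lhx3 and the Crhr1 probes are filled in 7 or more samples, and Pou1f1 and 1 Gnrhr probe only in samples of 1 array.

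The diet groups were compared over all 18630 genes and transcripts whose probe stood well above background in 4 or more samples. Of the 8 genes, only Lhx3 and Crhr1 did. Limma called 0 of these 2 in any comparison. Of all genes tested it called 0% between early-life and control ovaries (0 genes, 2587 at an unadjusted p under 0.05), 0.274% between peripubertal and control ovaries (51 genes) and 2.47% between early-life and peripubertal ovaries (460 genes). The peripubertal samples lay on a slide of their own, so slide and diet cannot be told apart in the last pair of comparisons. Because the 2 deposits exchange the control and early-life arrays, the sign of an early-life difference from control turns with the deposit followed. The 2 comparisons with peripubertal ovaries trade places. Under exchanged labels, 460 genes were called between peripubertal and control ovaries and 51 between early-life and peripubertal ovaries. The scanner labels are followed here.

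Lhx3 measured 7.40, 6.78, 6.92 and 7.85 in C1 to C4, 8.05, 6.61, 8.11 and 8.46 in E1 to E4, and 6.97, 7.19, 7.18 and 8.15 in P1 to P4. The 3 groups overlapped, with E2 the lowest and E4 the highest of all samples. Early-life minus control was 0.57 ± 0.52 (SE; limma, adjusted p = 0.614), with a 95% interval from -0.58 to 1.72. Peripubertal minus control was 0.14 ± 0.52 (limma, adjusted p = 0.949) and early-life minus peripubertal 0.43 ± 0.52 (limma, adjusted p = 0.643).

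Lhx3 varied between ovary samples beside markers of the oviduct lining, the tube attached to the ovary. The mean deviation of 9 of 10 oviduct epithelium markers was 2.87, 2.55 and 1.63 in E4, E1 and E3, and 0.91 and 0.81 in C4 and C1. It was -0.58 in E2, -1.35 and -1.13 in C3 and C2, and -1.51, -1.75 and -1.38 in P1, P3 and P4, while P2 stood between P4 and E2. The summed intensity of the markers with a value was 4173 to 87518 in control, 9877 to 285828 in early-life and 4287 to 8799 in peripubertal samples, and 7 to 10 of the 10 stood above background in each sample. Epcam and Ovgp1 had no value in C1, and Ovgp1 none in C2. The deviations and sums of C1 and C2 therefore cover fewer markers than those of the other samples. The 5 samples with a deviation above 0 and P4, whose deviation was -1.38, were the 6 samples highest in Lhx3. Wfdc2, a secretory gene of this list, was the only list member called, higher in early-life than peripubertal ovaries by 4.50 ± 1.00 (limma, adjusted p = 0.0479). That call held only without C4 or E2 among the fits that left out 1 sample, with adjusted p up to 0.150 (limma, without E1), and ended at 0.650 with the control and early-life labels swapped. The list was chosen with these values known, and the part of oviduct tissue in the Lhx3 values was not tested.

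**Figure D5:**
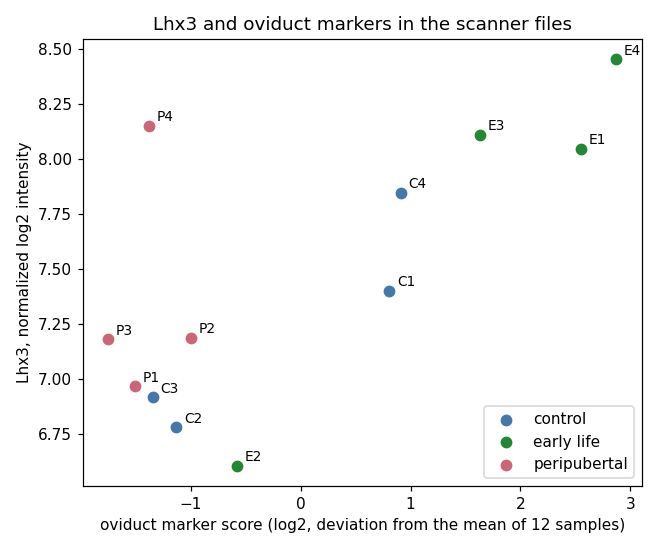
Lhx3 (normalized log2 intensity, vertical) against the mean log2 deviation of 9 oviduct markers (horizontal, fewer in C1 and C2, which lack values) in the 12 ovary samples. E4, E1, E3, C4 and C1 are high on both axes, and P4 is high in Lhx3 only.

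Crhr1, by its brighter probe, measured 8.83, 8.89, 8.67 and 7.84 in C1 to C4, 8.93, 8.74, 8.38 and 7.92 in E1 to E4, and 7.94, 9.39, 8.81 and 8.74 in P1 to P4. The groups overlapped throughout. Early-life minus control was -0.07 ± 0.43 (SE; limma, adjusted p = 0.953), with a 95% interval from -1.01 to 0.88. Peripubertal minus control was 0.16 ± 0.43 (limma, adjusted p = 0.920) and early-life minus peripubertal -0.23 ± 0.43 (limma, adjusted p = 0.777). Its second probe, above background in 7 of 12 samples, ran from 6.66 to 7.62 with a median of 7.09, and C4 was the lowest and P2 the highest sample on both probes.

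Of the other genes of the axis that could be tested in the ovary samples, 1 was called. Sstr5, a somatostatin receptor, measured a mean of 12.65 in early-life and 13.17 in peripubertal ovaries, a difference of -0.52 ± 0.10 (limma, adjusted p = 0.0374), with 14 other receptors of its list not called. Of the 7 hormone genes 5 were above background in no sample, and 0 of the 2 tested were called. Of 14 other pituitary transcription factors and 17 genes of hormone processing and secretion tested, 0 were called in any of the 3 comparisons. The glia marker Mog differed between early-life and peripubertal ovaries by -0.48 ± 0.09 (limma, adjusted p = 0.0322). Leaving out 1 sample, the Sstr5 call held without C4, E2, E4 or P3 and the Mog call without C1, C4, E2 or P3, and each ended without any other sample (limma, adjusted p up to 0.119 and 0.109, both without E3). With the control and early-life labels swapped they ended at adjusted p = 0.257 and 0.387 (limma).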

How the data were processed

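Ovary RNA of 12 mice was read on 6 arrays, each with 2 samples of 1 group. Per the file headers, the deposited scanner files give median and mean spot signals and local background as intensity in each dye, from Agilent Feature Extraction 11.0.1.1 with probe positions on build mm9. The deposited value table holds log2 values, and their making is not stated by the authors. The values of the OC and OE columns equal log2 of the median signal minus background, centred per column. How the OP columns were made could not be checked, since they matched no channel. Of 44397 features, 43020 measure transcripts through 39429 probes, named through RefSeq accession (27228), symbol (3581) or synonym (565), or as in the files (8055). The 8 genes and all gene lists were chosen with earlier results of these data known; the oviduct list was added after the values were seen.

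For the scanner files, mean signals had their background removed by normexp (offset 50), then loess was applied within each array and Aquantile across arrays. Outlier spots, 2.16% to 4.28% per channel, were dropped, and 4.84% of gene values were missing. Limma 3.58.1 in R 4.3.3 compared the 3 groups in 1 model with dye as covariate and array as random block (correlation 0.286), adjusted by Benjamini-Hochberg at 0.05 over 18630 genes, each by its brightest probe. The median signal was 6.85 to 9.49 times background, and the number of arrays limits precision. In the table, spots of a probe were averaged, the brightest probe stood for a gene, and at least 4 of 12 columns had to hold a value. Besides the 8 genes, up to 4 genes per list are named, those with the largest difference among genes whose 4 OP columns lie apart from all others, with list genes that limma called; some genes under this rule are not reported here. Genes outside this rule (Zeb2, Nr5a1, Nr0b1, Foxl2 and the releasing-hormone genes) were named after their values were seen.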

Additional observations from a re-analysis of the deposited data

Results flagged for a closer look

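In the early-life ovaries of the scanner files, Drd2 measured 6.89 in E3 against 6.63 to 6.64 in the other 3 samples, so E3 stood apart from its group. All 4 values were not well above background. Of 29 groups of 4 samples examined for the 10 probes, this was the 1 in which a sample stood apart, and about 5% of groups would by chance.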

How the results depend on the processing

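With 22 alternatives in each scanner comparison, 0 of the 8 genes were called in any. Only Lhx3 and Crhr1 were tested in them, except without the filter, where all 8 were. Calls over all genes ranged from 0 to 102 (early life and control), 0 to 460 (peripubertal and control) and 2 to 2075 (early life and peripubertal). The highest count of the last came without the array block, and the lowest, 2 and 3 against 460, without E1 and without E3. The 460 between peripubertal and control ovaries came with control and early-life labels swapped. With processed signals Wfdc2, Sstr5 and Mog were no longer called (limma, adjusted p = 0.0559, 0.0654 and 0.0570), and Wfdc2 also not without the filter (0.0658) or with outlier spots kept (0.0527). The scanner differences of Lhx3 and Crhr1 passed no threshold under any alternative, and 14 changed sign. With control and early-life labels swapped between arrays, Lhx3 became -0.57, -0.43 and -0.14 in these 3 comparisons, in that order, and Crhr1 0.066 in the first. With processed signals Crhr1 became 0.060 in the first. Leaving out 1 sample at a time, Crhr1 ranged from -0.33 to 0.13, from -0.15 to 0.50 and from -0.57 to 0.082, and Lhx3 from 0.30 to 1.03, from -0.14 to 0.36 and from 0.17 to 0.89. The replicate block left Lhx3 at 0.57 (limma, adjusted p = 0.392) and called 0 of the 2 genes tested, with 0, 14 and 647 calls over all genes. Deviations of samples with the same number correlated at -0.35 to 0.55 over 12 pairs, 3 of them over 0.1. Pairs of control with early-life samples ran from 0.071 to 0.55, and pairs with a peripubertal sample from -0.35 to 0.080. Pairs with different numbers were not set beside them, so whether the numbers share a source was not tested. Without the filter on dim probes all 8 genes were tested and 0 called, with the smallest adjusted p at Drd2 in early life against peripubertal ovaries (limma, 0.173). The median table difference of 4.95 ranged from 4.74 to 5.47 over 12 alternatives, 5.22 by replicate block and 4.74 to 5.18 without 1 OP column. The SD between OP columns, 0.70, is mostly the offset between dyes, so it is no measure of replicate spread within a dye. Signal over background limits Pitx1, Ghrhr, Trhr and Drd2 to bounds in ovary. The OP columns have no detection flags here.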
